A study of Rattus norvegicus with 5 samples.

Results

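The mitochondrial chromosome (chrM) of the rat was examined in ChIP-Seq libraries made with an antibody against histone H4 acetylated at lysine 5 (H4K5Ac). Every deposited step on chrM was used, which gave 163 steps of 100 bp in each library, out of 18558558 (MS) to 23195512 (input) steps in a whole file. The steps span 16300 bp of the rn4 build. ChIP-Seq precipitates sonicated, formaldehyde-crosslinked chromatin with the antibody and sequences the DNA that comes with it, and each aligned read is a tag.

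The DNA came from the dorsal striatum of male Sprague-Dawley rats. Rats were pretreated for 2 weeks with saline or with methamphetamine (METH) and then given a single challenge of saline or of METH at 5 mg/kg, 2 h before they were killed. SS and SM stand for saline pretreatment followed by a saline challenge (4 pooled rats) and by a METH challenge (3 pooled rats). MS and MM stand for METH pretreatment followed by saline (3 pooled rats) and by METH (4 pooled rats). Each pool gave 1 library, and 1 input library of 4 pooled samples labelled untreated, made without the antibody, served all groups. There was therefore no replicate error for any value below, and no test between groups was possible. The intervals given are 95% intervals that cover counting error only.

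Mitochondrial DNA is a small circular molecule present in many copies per cell. It is packed into nucleoids by the protein TFAM and carries no histones, so an antibody against a histone mark has no known target on it. The tags found there can serve as a measure of DNA that is carried along, as far as they do not stem from nuclear copies of mitochondrial DNA. The molecule holds 37 genes, namely 13 for proteins, 22 for transfer RNAs and 2 for the ribosomal RNAs 12S and 16S. The proteins are all part of oxidative phosphorylation, with 7 in complex I (ND1 to ND6 and ND4L), 1 in complex III (CYTB), 3 in complex IV (COX1 to COX3) and 2 in complex V (ATP6 and ATP8). In the usual vertebrate numbering the molecule starts with the genes for tRNA-Phe and the 12S and 16S rRNAs and ends with CYTB, tRNA-Thr, tRNA-Pro and the control region, where transcription and replication start. No annotation of chrM on the coordinates of the files was used here, so windows are given by position and not by gene.

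The libraries held 8678394 (SS), 12625177 (SM), 5860542 (MS), 9311155 (MM) and 17919395 (input) tags. Of these, 2762 (SS), 3584 (SM), 3167 (MS), 3460 (MM) and 27629 (input) tags lay on chrM. The share of all tags on chrM was lowest in SM at 0.0284% (Clopper-Pearson interval 0.0275 to 0.0293%), followed by SS at 0.0318% (0.0307 to 0.0330%), MM at 0.0372% (0.0359 to 0.0384%) and MS at 0.0540% (0.0522 to 0.0560%). In the input library it was 0.154% (0.152 to 0.156%). Every ChIP library thus had a smaller share of chrM than input, and none of the 5 intervals overlapped.

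**Figure D1:**
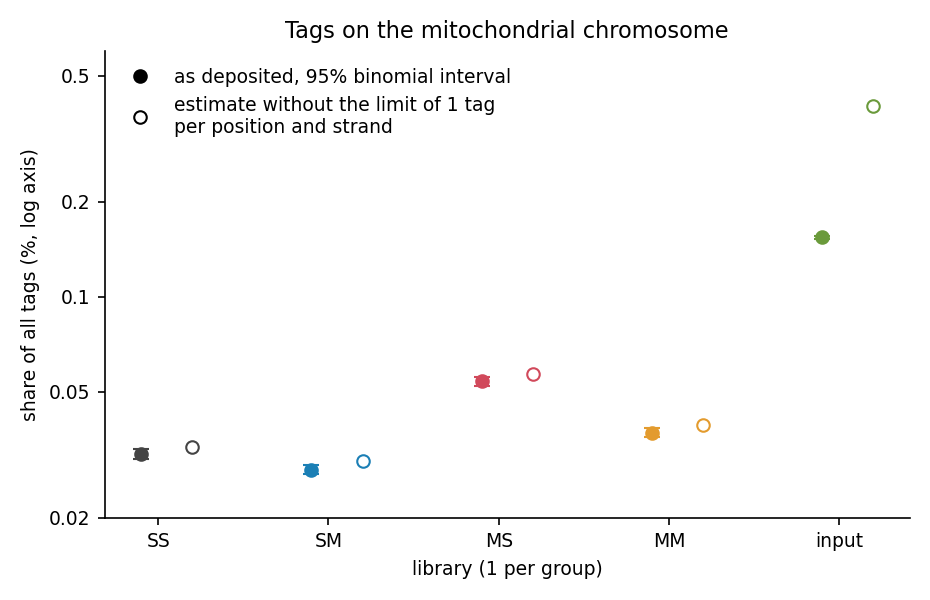
Share of all tags that lay on chrM, in percent on a log axis, for the 4 ChIP libraries and input, with 1 library per group. Filled points are the deposited tags with 95% binomial intervals and open points the estimate without the limit of 1 tag per position and strand, and the deposited values run from 0.0284% (SM) to 0.0540% (MS) in the ChIP libraries against 0.154% in input.

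The density of tags on chrM was above that of the nuclear chromosomes in every library. In input there were 1695 tags per kb of chrM against 6.58 per kb of nuclear DNA, a ratio of 258. In the ChIP libraries chrM held 169 (SS), 220 (SM), 194 (MS) and 212 (MM) tags per kb, which was 53.1, 47.4, 90.2 and 62.0 times the nuclear density of the same library. The tags of chrM were thus numerous enough for a profile in each library, in spite of their small share.

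The input values on chrM were bounded from above. Tags of a single 100 bp step could be solved exactly for 112 of the 163 steps, and in input 75 of the 112 (67.0%) held 180 tags or more, 4 held exactly 200 and 0 held more. A limit of 1 tag per position on each of the 2 strands allows 200 tags per 100 bp, and no solved 100 bp step of any library, nuclear steps included, exceeded it. The highest 1 kb window of input on chrM held 1975 tags, against 2000 allowed and 597 in the highest nuclear window. The ChIP libraries lay far from the limit, with at most 68 (SS), 53 (SM), 45 (MS) and 65 (MM) tags per solved 100 bp step of chrM.

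Whether tags repeated at the same position were removed, a usual step in ChIP-Seq, is not stated by the labels or the methods. If tags had fallen at random within each 1 kb window and only 1 per position and strand had been kept, input would have had about 71935 chrM tags (0.400% of all tags), 2.60 times the deposited number. The same estimate raised the ChIP libraries by 1.05 to 1.06 times. The density of chrM over that of nuclear DNA then came to 671 in input, against 55.8 (SS), 50.4 (SM), 95.1 (MS) and 65.8 (MM) in the ChIP libraries. Ratios to input are therefore given below both as deposited and corrected in this way.

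The first comparison asked how far the share of chrM in the ChIP libraries lay below that in input. Scaled to 1000000 tags of a library, hereafter normalised tags, chrM held 318 (SS), 284 (SM), 540 (MS) and 372 (MM) tags in the ChIP libraries and 1542 in input. The ratio of ChIP to input was 0.184 for SM (interval 0.178 to 0.191), 0.206 for SS (0.198 to 0.215), 0.241 for MM (0.233 to 0.250) and 0.350 for MS (0.338 to 0.364). The share of chrM was thus 4.84-fold (SS), 5.43-fold (SM), 2.85-fold (MS) and 4.15-fold (MM) lower than in input, least so in MS. Input was a single pool labelled untreated and not the DNA of each group before precipitation, so these folds do not measure the precipitation alone. With all libraries corrected for the limit, the share was 12-fold (SS), 13.3-fold (SM), 7.02-fold (MS) and 10.2-fold (MM) lower than in input. The corrected folds are rough, since input lay near its limit and its tags were not spread at random within windows. For example, input held 185 tags at 1501 to 1600 and 1 at 1601 to 1700.

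Nuclear DNA gave the background for this ratio. Of 162254 nuclear blocks of 16 kb, about the length of chrM, 14.2% (SS), 16.5% (SM), 20.9% (MS) and 16.4% (MM) were lower than input by 1.5 times or more, as chrM was in all 4 libraries. Only 592 (SS), 481 (SM), 3150 (MS) and 856 (MM) of these blocks were at or below the ratio of chrM. Among the 82106 blocks with at least the median number of input tags, 0 (SS), 0 (SM), 221 (MS) and 1 (MM) were.

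Blocks of 16 kb hold far fewer tags than chrM and so scatter more. In 2883 nuclear blocks of 870 kb, with a median of 2802 SS tags, close to the 2762 of chrM, the share lower by 1.5 times or more was 0.0347% (SS), 1.21% (SM), 1.6% (MS) and 0.312% (MM). The lowest of these blocks had a ratio of 0.650 (SS), 0.588 (SM), 0.537 (MS) and 0.592 (MM), so every one lay above chrM in each of the 4 libraries.

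**Figure D2:**
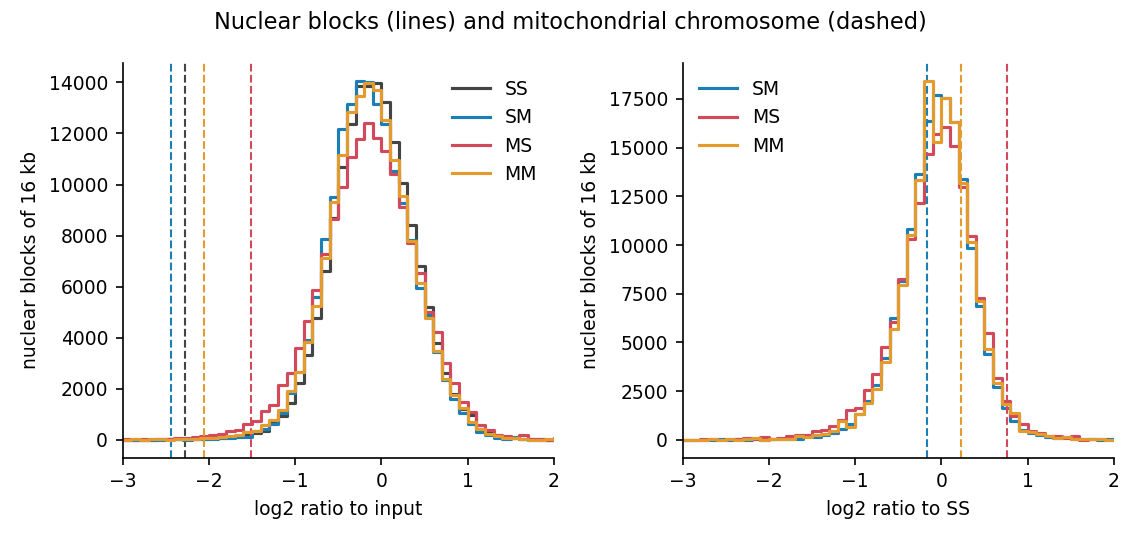
Number of nuclear 16 kb blocks by the log2 ratio of normalised tags (per 1000000 tags of a library) to input (left) and to SS (right), as lines for each ChIP library, with the value of chrM dashed in the same colour. On the left the 4 chrM values lie in the lower tail, with 592 (SS), 481 (SM), 3150 (MS) and 856 (MM) of 162254 blocks at or below them, and on the right the MS value lies in the upper tail.

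The second comparison asked whether METH pretreatment or challenge went with a different level of chrM tags. The ratio of normalised tags to SS was 1.70 in MS (1.61 to 1.79), 1.17 in MM (1.11 to 1.23) and 0.892 in SM (0.849 to 0.938). These 3 ratios share the SS library. After the METH challenge the level in METH-pretreated rats was 0.688 of that after saline (MM over MS, 0.655 to 0.722), and among challenged rats the METH-pretreated group was at 1.31 times the saline-pretreated one (MM over SM, 1.25 to 1.37). Both METH-pretreated libraries thus stood above both saline-pretreated libraries, and within each pretreatment the challenged library was the lower one. Scaled to nuclear 10 kb windows with few tags in place of all tags, SM was at 0.988 of SS, close to no difference.

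In nuclear blocks of 16 kb, 5.93% were higher in MS than in SS by 1.5 times or more, as chrM was, and 2.85% were at or above the ratio of chrM. Of these blocks, 9.08% were at or below the MM to MS ratio of chrM, and 13.3% were at or above its MM to SM ratio. In the 870 kb blocks the ratio of MS to SS ran from 0.720 to 1.18 with a median of 0.993, and 0 of 2883 blocks (0%) were higher by 1.5 times or more. The MM to SS ratio of chrM was reached or exceeded by 6 of the 2883 blocks, whose ratios ran from 0.724 to 1.23, and 608 blocks were at or below its SM to SS ratio. The MM to MS ratio of chrM lay below all 2883 blocks (0.850 to 1.31), and its MM to SM ratio lay above all of them (0.834 to 1.28). Measured by the 870 kb blocks, which are far longer than chrM, chrM in MS stood outside the range of nuclear blocks of like tag number, and chrM in SM within it.

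The total number of tags also differed between the libraries. Among the ChIP libraries, MS, with the highest share of chrM, was the smallest, at 0.675 times the tags of SS, and SM, with the lowest share, was the largest, at 1.45 times. Input was larger still and had the highest share of all. MM had 1.07 times the tags of SS. The part of library size in the ratios was not tested. Because input was not sequenced for each group, a different amount of mitochondrial DNA in the tissue and a different carry-over in the precipitation cannot be told apart, nor can either be told from a difference between single libraries.

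The profile along chrM was described in 16 disjoint windows of 1 kb, from positions 1 to 16000, with the last 300 bp left over. A low stretch at positions 1601 to 2600 was shared by all libraries. This sliding window was the lowest in each of them, with 84 (SS), 89 (SM), 76 (MS), 104 (MM) and 712 (input) tags. Within it, the steps from 1601 to 1800 held 0 tags in all 4 ChIP libraries and 1 tag in input. The gap was thus also present in input DNA, which had not been precipitated.

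Smaller gaps also coincided. The step at 3901 to 4000 held 1 (SS), 1 (SM), 3 (MS), 1 (MM) and 24 (input) tags, and that at 11701 to 11800 held 3 (SS), 4 (SM), 3 (MS), 3 (MM) and 31 (input) tags, against medians of 16, 22, 20, 21.5 and 188 over the 112 steps. In the 5 steps where input held under 50 tags, the mean of the ChIP libraries was 0.0625 (SS), 0.0483 (SM), 0.0725 (MS) and 0.0416 (MM) of that in the 91 steps with 150 or more. In the 16 steps between these bounds, the means were 0.527 (SS), 0.563 (SM), 0.527 (MS) and 0.627 (MM) of the top class. Steps with fewer input tags thus had fewer ChIP tags, although the 5 lowest steps rest on a mean of 1 to 1.6 ChIP tags each. Since input was bounded in the top class, the proportions were not compared with those of input. Whether the alignment kept tags that match more than 1 place, such as nuclear copies of mitochondrial DNA, is not stated either. Its part in these gaps, and in the other tags of chrM, was not tested.

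**Figure D3:**
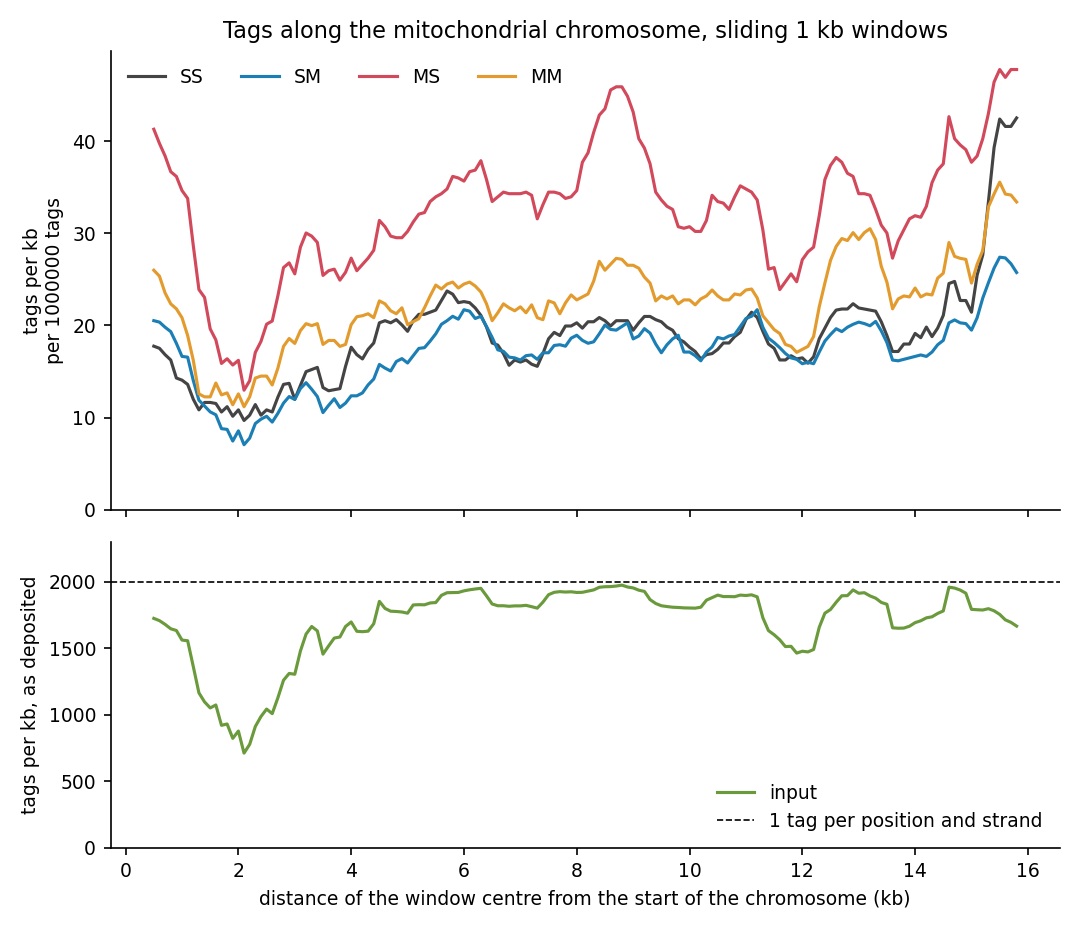
Tags in sliding 1 kb windows along chrM by the distance of the window centre from the start of the chromosome in kb, per 1000000 tags for the 4 ChIP libraries (top) and as deposited for input (bottom), where the dashed line is the 2000 tags per kb that 1 tag per position and strand allows. All libraries dip at the window from 1601 to 2600, input stays near the line over most of the rest, and the ChIP libraries rise towards the end, where SS comes close to MS.

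The 1 kb windows of each library varied by more than counting error. The coefficient of variation (CV) over the 16 windows was 35.8% (SS), 24.6% (SM), 23.4% (MS), 23.6% (MM) and 16.5% (input), while counting error alone gave 6.74 to 7.70% in the ChIP libraries. Over the 14 inner windows, from 1001 to 15000, it was 19.8% (SS), 21.0% (SM), 21.2% (MS), 20.1% (MM) and 17.8% (input). The wider spread of SS was thus not seen in the inner windows, whose profile was about as uneven as in the others. Of the end windows of SS, that from 15001 to 16000 held 368 tags. The first held 154, near the median window of 162.5.

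In every ChIP library the window from 15001 to 16000 held the most tags. It had 368 (SS), 346 (SM), 280 (MS) and 331 (MM) tags, which was 2.26, 1.5, 1.42 and 1.53 times the median window of the library. In input the same window held 1755 tags, below the median of 1806, and the highest was that from 8001 to 9000 with 1963. Since input was limited to 2000 tags per kb, a rise of 1.42 times its median or more could not have shown there. Of all chrM tags of a library, the window held 13.3% (SS), 9.65% (SM), 8.84% (MS), 9.57% (MM) and 6.35% (input). The lowest window was that from 2001 to 3000 in SS (94), SM (128) and input (1043) and that from 1001 to 2000 in MS (115) and MM (114).

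Most of the rise lay in the 5 steps from 15501 to 16000, which were singled out after their values were seen and are described without a test. The SS library held 274 tags there (45 to 68 per 100 bp), the SM library 225 (37 to 53), the MS library 186 (28 to 45) and the MM library 227 (37 to 65). Their mean was 3.43 (SS), 2.05 (SM), 1.86 (MS) and 2.16 (MM) times the median of the other 107 solved steps, of which the highest held 30 (SS), 38 (SM), 42 (MS) and 37 (MM) tags. Input held 936 tags there, a mean of 0.996 times its median of 188. In input the 3 steps from 15501 to 15800 lay close to the limit of 200, at 196, 195 and 199, while those at 15801 to 15900 and 15901 to 16000, where SS held 68 and 52, lay under the median at 175 and 171. In SS every one of the 5 steps exceeded every other solved step of the chromosome.

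In normalised tags, these 500 bp were the place where SS and MS came together. They held 31.6 normalised tags in SS and 31.7 in MS, a ratio of 1.01. SM held 17.8 and MM 24.4, or 0.564 and 0.772 times SS. Over the rest of chrM the ratios to SS were 1.77 in MS, 0.928 in SM and 1.21 in MM. All 3 ratios were thus lower in these 500 bp than over the rest of chrM. All 3 have the same SS library as denominator. The 500 bp were picked after their values were seen and hold the highest solved steps of SS, which by itself tends to lower ratios to SS there. The rest includes the last 300 bp, which held 62 (SS), 59 (SM), 65 (MS) and 54 (MM) tags.

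**Figure D4:**
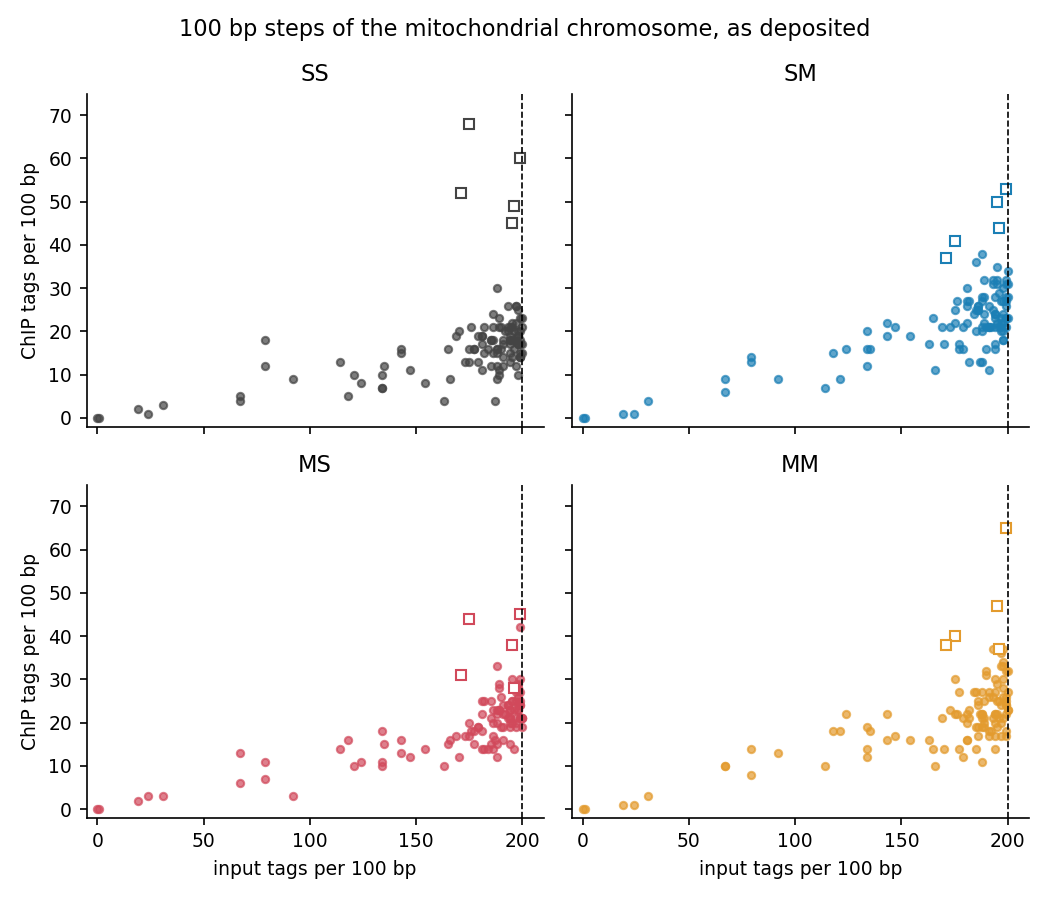
Tags in each of the 112 solved 100 bp steps of chrM in a ChIP library (vertical axis) against input (horizontal axis), 1 panel per ChIP library, with open squares for the 5 steps from 15501 to 16000 and a dashed line at the limit of 200. Steps with few input tags have few ChIP tags, most steps are crowded below the limit, and the squares lie above the other steps of SS, at 45 to 68 tags against at most 30.

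The third comparison asked whether the higher level in MS was even along chrM. The ratio of MS to SS was above 1 in 16 of 16 windows, and the interval lay wholly above 1 in 15 of them. The median window had a ratio of 1.79. A window was said to depart when its interval left out the ratio of the whole chromosome, and 3 of 16 windows departed, or 18.8%, against 12.3% of 47393 nuclear blocks of 50 kb (median 158 SS tags) set against the nuclear ratio. Nuclear blocks with few input tags were left out. Those kept may differ in H4K5Ac between libraries, so their share is not what an even profile would give. The share on chrM is near that background, so the departures are given by place only.

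The highest ratio was in the first window, from 1 to 1000, where 154 tags in SS and 242 in MS gave 2.33 (1.89 to 2.87). The next was in the window from 8001 to 9000, where 178 and 255 tags gave 2.12 (1.74 to 2.58), followed by 10001 to 11000 with 151 and 196 tags and a ratio of 1.92 (1.55 to 2.39). The lowest was in the window from 15001 to 16000, where 368 and 280 tags gave 1.13 (0.961 to 1.32), the single window whose interval held 1. The windows from 11001 to 12000 and from 4001 to 5000 came next, at 1.5 (1.19 to 1.89) and 1.55 (1.25 to 1.91).

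Relative to the whole chromosome, the first window stood at 1.37, and 1.51% of the 50 kb nuclear blocks were as far or farther above the nuclear ratio. The window from 8001 to 9000 stood at 1.25 (5.95% of blocks at or above) and that from 15001 to 16000 at 0.664 (2.36% at or below). These windows are extremes picked from 16, so the shares place them and do not measure how rare they are. The first and the last of these windows lie on either side of the point where the circular molecule is opened for numbering. The last 300 bp lie between them, and the 2 windows departed in opposite directions.

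On this grid, no inner window departed from the ratio of the inner windows together. The joint ratio of MS to SS over the 14 inner windows was 1.75 (1.66 to 1.86), the single windows ran from 1.5 to 2.12 with a CV of 10.1%, and the interval of 0 of 14 left out the joint ratio. With windows moved by 500 bp, which leaves out both ends, 3 of 15 departed, all above the ratio of the whole chromosome, at 501 to 1500 (2.46), 6501 to 7500 (2.14) and 8501 to 9500 (2.22). The interval of the window from 8501 to 9500 (1.82 to 2.71) also left out 1.75, the only one of 13 moved windows inside 1001 to 15000 to do so (7.69%, against 12.3% of nuclear blocks for the nuclear ratio). This window shares the tags of 8501 to 9000 with that from 8001 to 9000 and is no separate observation. The excess at 6501 to 7500 appeared on the moved grid only, since the windows from 6001 to 7000 and from 7001 to 8000 stood at 1.85 and 1.86.

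**Figure D5:**
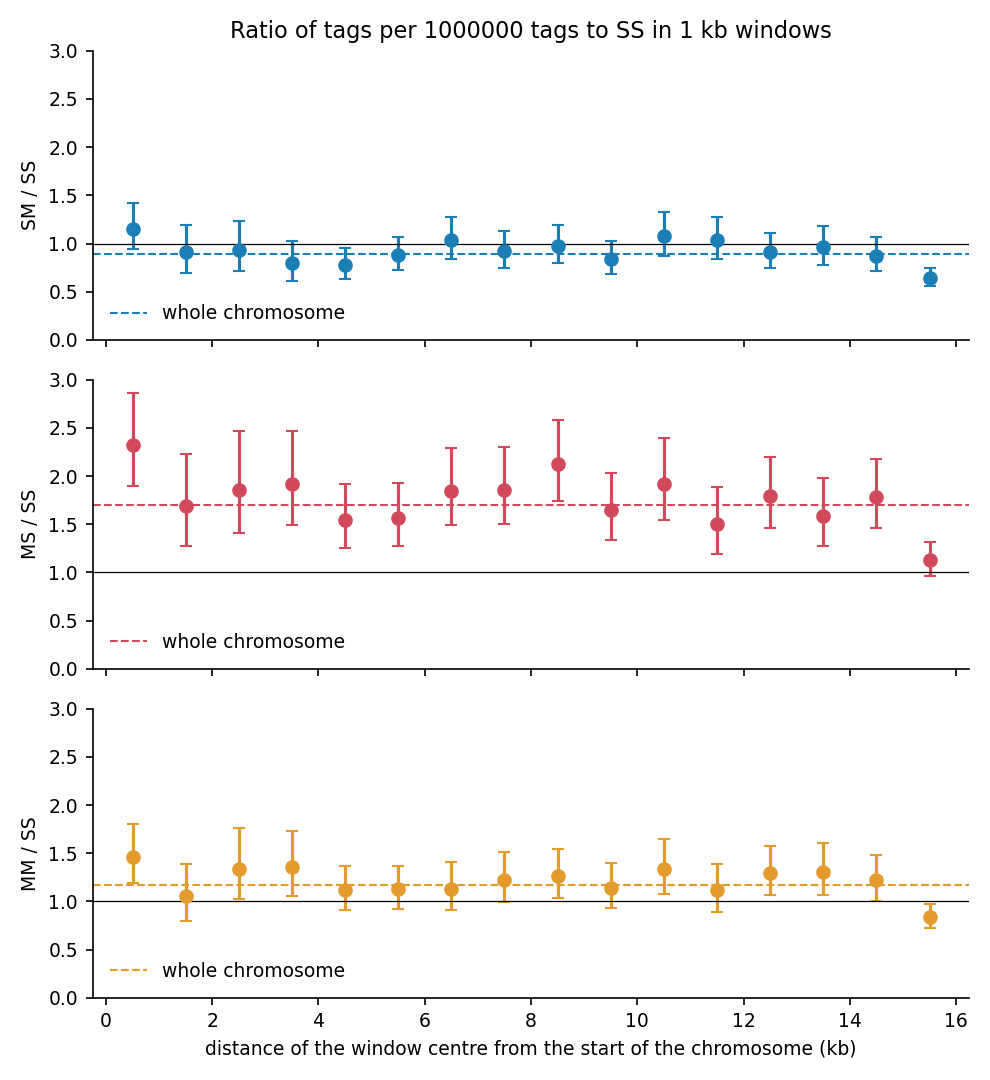
Ratio of normalised tags (per 1000000 tags of a library) to SS in the 16 windows of 1 kb along chrM, by the distance of the window centre from the start of the chromosome in kb, for SM, MS and MM, with 95% intervals for counting error, the ratio of the whole chromosome dashed and a ratio of 1 as a thin line. The MS points lie between 1.5 and 2.33 except the last one at 1.13, and the last window is also the lowest in SM (0.646) and MM (0.838).

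On the grid of 16 windows the same end windows departed in the other comparisons with SS. In SM 2 of 16 windows departed (12.5%, nuclear blocks 20.1%), the first one at 1.16 (0.943 to 1.42) above the ratio of the chromosome and the last one at 0.646 (0.556 to 0.751) below it. In MM 2 of 16 departed (12.5%, nuclear blocks 13.7%), again the first at 1.46 (1.19 to 1.80) above and the last at 0.838 (0.721 to 0.975) below. The first window held 154 (SS), 259 (SM), 242 (MS), 242 (MM) and 1725 (input) tags, so that it took 5.58% of the chrM tags of SS, the lowest share of the 5 libraries, against 6.24% in input. Other settings also called inner windows. With windows moved by 500 bp, that from 501 to 1500 departed above in both comparisons, and so did 3501 to 4500 in SM (0.701, below) and 2501 to 3500 in MM (1.51, above). In 2 kb windows, that from 10001 to 12000 departed in SM (1.05, above). These calls were made against the ratio of the whole chromosome. On the grid of 16 windows, 0 of 14 inner windows left out the joint inner ratio, 0.922 in SM and 1.21 in MM. The interval of 3501 to 4500 in SM (0.557 to 0.882) left out this joint ratio. Those of 10001 to 12000 in SM (0.911 to 1.22) and of 2501 to 3500 in MM (1.17 to 1.94) held it. Because all 3 comparisons share SS, they are not independent of each other.

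Without SS in the comparison the ends did not stand out. From MS to MM the ratio ran from 0.597 (8001 to 9000) to 0.823 (13001 to 14000), it was below 1 in all 16 windows, and 0 of 16 departed (0%, nuclear blocks 10.1%). With windows moved by 500 bp 1 of 15 departed, that from 12501 to 13500 at 0.855. From SM to MM it ran from 1.08 to 1.70, and 1 of 16 departed (6.25%, nuclear blocks 10.4%), the window from 3001 to 4000, with 133 tags in SM and 167 in MM. On the moved grid 0 of 15 departed, and 2 of the 14 inner windows left out the joint inner ratio of 1.32, those from 3001 to 4000 (1.70) and from 11001 to 12000 (1.08). In both comparisons the windows at the ends were within their intervals of the ratio of the whole chromosome.

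The profiles of the libraries were also set against each other over the 16 windows, which are neighbours on 1 molecule and so give a description only. Pearson's r was 0.895 between SM and MS, 0.923 between SM and MM and 0.930 between MS and MM (Spearman's rho 0.829, 0.837 and 0.887). With SS it was 0.860 for SM, 0.773 for MS and 0.883 for MM (rho 0.628, 0.764 and 0.789). Over the 14 inner windows the order was another one, with r of 0.888 (SS and SM), 0.866 (SS and MS), 0.928 (SS and MM), 0.845 (SM and MS), 0.865 (SM and MM) and 0.910 (MS and MM), so that by r the lower values of SS were seen only with the end windows included. With input over the 16 windows, r was 0.474 (SS), 0.704 (SM), 0.742 (MS) and 0.718 (MM) (rho 0.441, 0.349, 0.434 and 0.351). Over the inner windows r with input was 0.897 (SS), 0.884 (SM), 0.880 (MS) and 0.902 (MM), and rho was 0.455 (SS), 0.587 (SM), 0.634 (MS) and 0.520 (MM). Input lay near its limit over most of these windows, which bounds what either measure can show. The lowest input windows, from 1001 to 2000 (1052 tags) and from 2001 to 3000 (1043 tags), were also low in every ChIP library. How far r rests on them was not tested.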

How the data were processed

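H4K5Ac ChIP-Seq of rat dorsal striatum was analysed on chrM in the SS, SM, MS and MM groups and input, with 1 library each. Reads were cut to 41 bases and aligned by the authors with Gerald, and rn4 is named in the submitters' processing notes. The version of Gerald, any filter on alignments and any removal of repeated tags were not given in the sources used here. What the authors deposited are counts, namely whole numbers of tags in the 1 kb around each 100 bp step, neither scaled to depth nor corrected for input.

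Successive windows overlap, so disjoint windows were taken for 1 kb values, and tags per 100 bp were solved from the differences between steps. On chrM 112 of 163 steps were fixed in this way. The 32 that could be solved from both ends were equal in every library, and 0 nuclear windows failed to be rebuilt from the solved steps. The exact total of chrM was used, in place of the summed windows over 10 as planned at first, since that sum loses tags near the ends.

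Depth ran from 5860542 to 17919395 tags, and values were scaled per 1000000 tags of a library. Shares have Clopper-Pearson intervals and ratios exact conditional binomial intervals, at 95%. The correction for the limit replaced n tags of a 1 kb window by 2000 ln(1/(1 - n/2000)). Recovery, correction and intervals were tested on simulated data. For the correction these had tags placed at random and did not reach the density of the fullest input windows. Nuclear values are from chromosomes 1 to 20 and X.

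Windows named are those with most and fewest tags in a library, the 3 highest and 3 lowest ratios of MS to SS, and the first and last. The window singled out at 3001 to 4000, those on the moved grid and the single steps were chosen after their values were seen, as were the nuclear blocks of 870 and 50 kb, which hold about as many SS tags as chrM and a 1 kb window of it. The region and its comparisons were chosen with earlier results of these data known. The gene table at hand, of another assembly, has 0 entries on the mitochondrial chromosome, and no sequence of chrM was used. Python 3.11.15, NumPy 2.4.6, SciPy 1.17.1, pandas 2.3.3 and matplotlib 3.10.9 were used.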

Additional observations from a re-analysis of the deposited data

Results flagged for a closer look

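In 4 of the 16 windows of chrM the METH challenge went in opposite directions in saline-pretreated (SM over SS) and METH-pretreated rats (MM over MS), and the difference was not tested, since each group was 1 library. In the first window, from 1 to 1000, the ratios were 1.16 and 0.629. In the window from 6001 to 7000 they were 1.03 and 0.613. In the window from 10001 to 11000 they were 1.07 and 0.694, and in that from 11001 to 12000 they were 1.04 and 0.744. Scaled to all tags, nuclear blocks of 50 kb did so in 48.7% of 47393 cases, against 25% of the windows of chrM. These shares are not like for like. The nuclear ratios had medians near 1 (0.983 for SM over SS, 1.00 for MM over MS). Both ratios of the whole chrM were below 1 (0.892 and 0.688), which by itself lowers its share. With chrM scaled to nuclear windows with few tags, 10 of the 16 windows did. The use of this scaling for the count was chosen after seeing the data. It moves all windows of a library by the same factor, and it was not applied to the nuclear blocks. In all 4 windows the interval of the SM to SS ratio held 1, while that of the MM to MS ratio lay below it.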

How the results depend on the processing

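Of 86 recalculated values, 56 stayed within a set bound and 30 moved further. A change of direction was looked for in the ratios only, of which 0 changed it. The bound was the 95% interval for shares and ratios, the counting CV for CVs, 5 points for percentiles and 1.5 times for numbers of windows. Corrected for the limit of 1 tag per position and strand, the share of chrM was 0.0335% (SS), 0.0302% (SM), 0.0570% (MS), 0.0394% (MM) and 0.400% (input), and the ratio to input 0.0835 (SS), 0.0754 (SM), 0.142 (MS) and 0.0984 (MM), as the correction acts mainly on input. Disjoint windows over the 10 possible starts gave at the lowest 0.0297% (SS), 0.0273% (SM), 0.0517% (MS), 0.0357% (MM) and 0.150% (input), since they leave out an end, and the windows' sum divided by 10 gave 0.152% in input. Scaled to nuclear 10 kb windows with few tags, the ratio to input was 0.240 (SS), 0.237 (SM), 0.442 (MS) and 0.301 (MM), and that to SS 0.988 (SM), 1.84 (MS) and 1.25 (MM), with SM close to SS. Without the first and last 1 kb the ratio to input was 0.191 (SS), 0.176 (SM), 0.334 (MS) and 0.231 (MM), and the CV of SS fell to 19.8%. In 2 kb windows 1 departed in MM. Against blocks with at least the median input tags, the percentile of chrM went from 35.6 to 22.5 (SM over SS) and from 86.7 to 93.2 (MM over SM). Beyond what each choice changes by construction, the cause was not tested.

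No paired analysis was possible because each group was 1 pooled library. The limit on tags sets what input can show on chrM, counting error sets the precision of a 1 kb window in the ChIP libraries, and neither covers differences between animals or precipitations.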
